A study of Homo sapiens with 30 samples.

Results

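LINC symbols are given to long intergenic non-coding RNA genes, most of them with no described function. The deposited table holds 1 value per library for the region around the transcription start of 16009 genes, and 210 of these rows carry a symbol that begins with LINC and a number. The members were chosen by that symbol, with no measured value. Of the 210, 198 are annotated as lncRNA, 11 as transcribed pseudogenes and 1 as a protein-coding readthrough gene, LINC02210-CRHR1. By the median, the annotated transcript of a member was 1380.5 bases long, and 18 members had a single exon. The label "intergenic" holds for 124 members. The start of the other 86 lies within 500 bases of the start of another gene (51 with one on the opposite strand, 13 on the same strand) or inside another gene (60), with some in several of these classes.

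The cells are MEL624, a human melanoma line. The control cells are wild type with a random guide RNA and the KO cells lack PCIF1, with no other allele or agent given for either genotype. Each genotype has 3 input libraries and 3 immunoprecipitation (IP) libraries made with 1 antibody against N6-methyladenosine, 12 libraries in all, and the 18 first-stage libraries of the series, which compared 8 antibodies, are not analysed here. The series describes a clonal KO line for its first stage and biological replicates for its second, and whether those replicates are separate clones is not given in the sources used here. Differences between the genotypes therefore cannot be told apart from differences between the lines.

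A transcript made by RNA polymerase II carries a cap of methylated guanosine on its first base. When that base is an adenosine already methylated on its ribose, PCIF1 can add a methyl group at N6 and so form m6Am. Antibodies against N6-methyladenosine also bind m6Am. In m6Am-Exo-Seq an exonuclease removes RNA that lacks a cap, so that the capped 5′ ends remain, and the antibody then selects among them. The antibody also binds internal N6-methyladenosine, a mark that PCIF1 does not make. Most lncRNAs are capped, spliced and polyadenylated like mRNAs, but are less abundant and differ more between cell types.

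The starts on which the results turn are shown here, so that the first base, on which m6Am depends, can be read directly. Each run covers 50 bases before the annotated start in lower case and the first 25 transcribed bases in capitals, 5′ to 3′, from hg38 with the start of the canonical transcript of GENCODE 44. LINC00667 on the plus strand of chr18:5238017-5238091 had the highest level of all members and starts with G. LINC00973 (chr3:98981008-98981082, plus strand) starts with A and ranked next. LINC01291 (chr2:74918098-74918172, plus strand) starts with A and was strongly enriched by the antibody in both genotypes. LINC03052 (chr2:95526730-95526804, minus strand) starts with A and was lower in the IP only where PCIF1 was missing. LINC01560 (chrX:47483521-47483595, plus strand) starts with G and had the largest difference between IP and input in KO cells. LINC01029 (chr18:77993707-77993781, minus strand) starts with C and was higher in KO than in control cells. LINC02241 (chr5:20611756-20611830, plus strand) and LINC00540 (chr13:22040925-22040999, plus strand) had no read in any KO library. Of these 8, only LINC01291, LINC01029 and LINC00540 start away from other genes, so that the reads of the other 5 may in part belong to a neighbour.
LINC00667: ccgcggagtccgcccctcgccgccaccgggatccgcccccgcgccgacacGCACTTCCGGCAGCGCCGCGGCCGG
LINC00973: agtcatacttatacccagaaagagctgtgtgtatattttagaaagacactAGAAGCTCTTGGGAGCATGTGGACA
LINC01291: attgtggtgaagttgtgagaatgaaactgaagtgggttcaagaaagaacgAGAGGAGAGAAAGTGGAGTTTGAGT
LINC03052: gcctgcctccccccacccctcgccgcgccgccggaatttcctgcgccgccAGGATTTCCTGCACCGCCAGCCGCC
LINC01560: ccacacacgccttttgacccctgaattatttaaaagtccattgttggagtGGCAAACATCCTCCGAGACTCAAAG
LINC01029: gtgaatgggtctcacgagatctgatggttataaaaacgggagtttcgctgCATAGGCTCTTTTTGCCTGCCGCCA
LINC02241: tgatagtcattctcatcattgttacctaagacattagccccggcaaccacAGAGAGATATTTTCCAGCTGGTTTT
LINC00540: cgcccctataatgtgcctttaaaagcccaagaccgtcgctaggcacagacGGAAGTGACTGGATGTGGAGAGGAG

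By the annotation, 75 of 210 members (35.7%) start with A, 91 (43.3%) with G, 30 (14.3%) with C and 14 (6.67%) with T. Over the 15903 rows with a matched identifier the shares were 43.8%, 40.1%, 12.7% and 3.45%. The canonical transcript and the outermost start of the gene record gave the same base for 152 members, so that the base of the rest is less certain. In the window from 250 bases before to 50 after the start, the median GC content was 55.7% in members and 65.0% over all rows, and the median number of CG dinucleotides was 10.5 against 25. The letters GGGCGG, or their reverse complement, stood in 37.6% of member windows and in 66.3% of all windows. TATAAA on either strand stood in 11.0% of member windows against 6.59%, and CCAAT on either strand in 37.1% against 35.6%. TATAAA from 38 to 19 bases before the start on the transcript's own strand was found in 2 members, which is 0.952% against 1.40% over all rows. A C before the start followed by an A as first base, the core of many initiators, was present at 43 members (20.5%) and at 30.5% of all starts. These are matches of letters in the annotated windows, not mapped sites.

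Members were weakly expressed. Their mean log2 CPM (log2 of CPM, the read count scaled to the size of the library) ran from -2.27 to 7.53 with a median of 1.53, against 3.8 over all rows. The median member had 131.5 reads over the 12 libraries together, and 102 members had under 10 reads per library on average. All 210 met the filter on low values, as did all 16009 rows. Members together took 0.198% ± 0.0018 (SD, n = 3) of the reads of control inputs and 0.216% ± 0.0014 of KO inputs. Their share was 0.259% ± 0.013 in control IPs and 0.318% ± 0.013 in KO IPs. The 10 members with the most reads gave from 40% to 55.3% of all member reads in a library, so these shares follow a small number of genes.

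Libraries held from 3232562 to 4094070 assigned reads in control inputs, from 2836120 to 3544669 in KO inputs, from 4035815 to 4625190 in control IPs and from 1753164 to 2177874 in KO IPs. KO IPs were the shallowest and also differed in content. Mitochondrial transcripts took 1.95% of their reads against 0.946% of control IPs, and small nucleolar RNAs took 4.71% against 1.60%, while the inputs lay at 1.12% (control) and 0.727% (KO) for the former and 4.55% and 4.32% for the latter. The part of these differences in the comparisons of genotypes was not tested. Of 11 genes that mark melanocytes only MITF and PAX3 have a row, at a summed level from 22.8 to 32.3 CPM in control inputs and from 37.0 to 50.1 CPM in KO inputs. PMEL, MLANA, TYR, DCT and SOX10 have none. None of the 6 keratinocyte, 6 fibroblast and 4 endothelial markers has a row, and of 6 leukocyte markers only CD74 does, from 118 to 146 CPM in control inputs and from 47.1 to 77.2 CPM in KO inputs. The start of PCIF1 was read at 57.8, 52.5 and 49.3 CPM in control inputs and at 70.3, 77.9 and 77.0 CPM in KO inputs. Since the edited position is not given in the sources used here, reads at the start do not check the knockout.

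The 10 members with the highest mean level show how far single LINC starts differed. LINC00667 was read at 114, 118 and 130.2 CPM in the control inputs, 337, 369 and 415 in the control IPs, 67.7, 63.3 and 65.9 in the KO inputs and 378, 401 and 406 in the KO IPs. It was higher in every IP than in every input, and KO inputs lay below control inputs. LINC00973 had 123, 129 and 144 CPM in the control inputs, 266, 319 and 334 in the control IPs, 82.9, 88 and 61.4 in the KO inputs and 132, 157 and 138 in the KO IPs. All IPs of a genotype again lay above its inputs, and both groups were lower in KO cells. LINC01029 went the other way between genotypes, at 82.2, 65.3 and 61.6 CPM in the control inputs, 40.8, 63 and 47 in the control IPs, 253, 277 and 234 in the KO inputs and 451, 445 and 444 in the KO IPs. Its control IPs and control inputs overlapped, while every KO library was far above every control library. LINC02582 was at 112, 114 and 106 CPM in control inputs but only at 49.8, 50.9 and 56.4 CPM in control IPs. In KO cells it was read at 160.4, 143 and 142 CPM in inputs and at 151, 165 and 160.3 CPM in IPs, which overlap. LINC00662, described in several tumour types, stood at 51.3, 52.5 and 52 CPM in the control inputs, 93.2, 87.9 and 98.8 in the control IPs, 61.4, 60.9 and 54.2 in the KO inputs and 104, 119.8 and 122 in the KO IPs. It shares its start region with LINC02987 on the opposite strand, so their reads may not be separable.

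**Figure D1:**
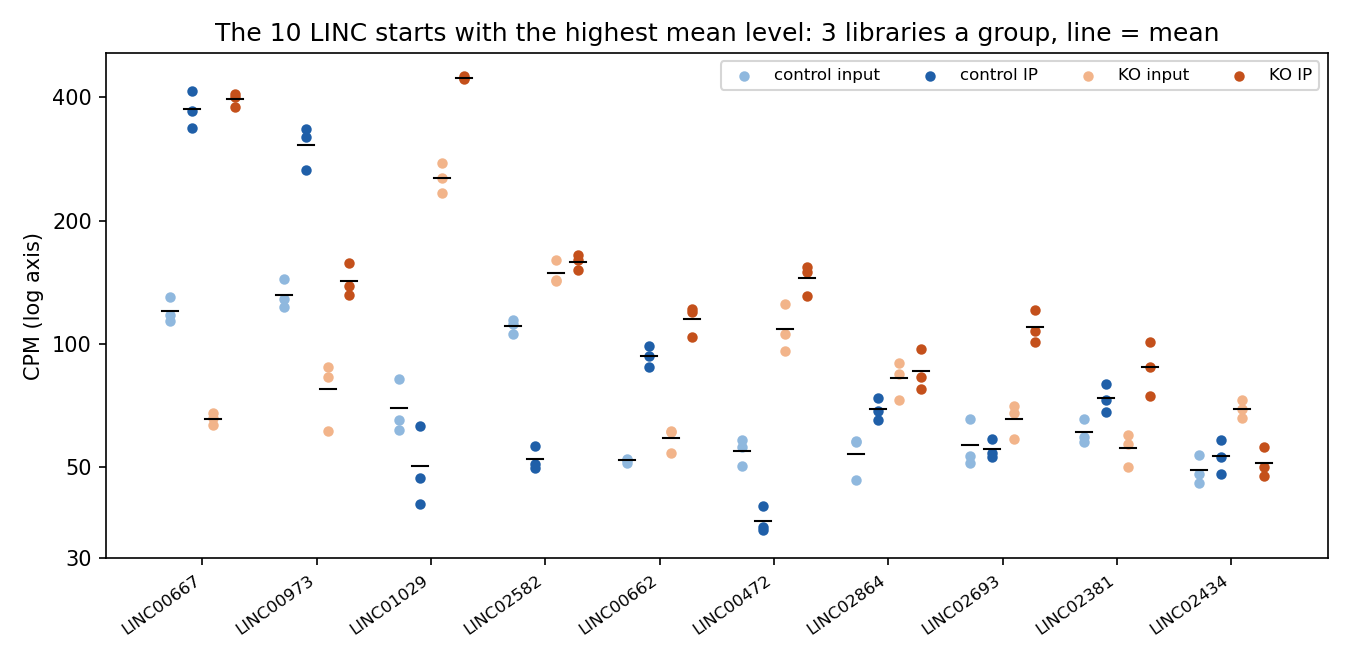
Level in CPM (log axis) of the 10 LINC starts with the highest mean level; each point is 1 library, colours mark the 4 groups and the line is the group mean. LINC00667 is higher in IP than in input in both genotypes, whereas LINC01029 and LINC00472 are higher in all KO libraries than in all control libraries.

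The first question was which LINC starts the antibody enriched in control cells. Of 210 members, 53 rose in control IPs over control inputs and 21 fell (limma, Benjamini-Hochberg adjusted p under 0.05 over all rows). That is 25.2% and 10.0%, where 27.7% of all rows rose and 28.2% fell. The median log2 difference of members was 0.32 with an SD of 0.12 over the 3 IP libraries, against -0.01 over all rows. Among the 79 members with a mean log2 CPM of at least 2, 43.0% rose and 16.5% fell, against 34.7% and 33.1% of such rows. Those rows were still better covered, with a median mean log2 CPM of 4.79 against 3.28 in these members. Among less covered members 14.5% rose and 6.11% fell, against 10.2% and 16% of such rows. LINC00707 was read at 24.4, 25.9 and 25.4 CPM in control inputs and at 132, 115 and 137 CPM in control IPs. Its IPs lay far above its inputs, by 2.33 ± 0.20 (log2 ± SE, adjusted p = 5.02e-09). LINC01291 went from 14.5, 9.85 and 14.9 CPM to 68.5, 59.8 and 55.1 CPM, a rise of 2.24 ± 0.17 (adjusted p = 7.89e-10). Among called members with a mean log2 CPM of at least 1 the largest rise was that of LINC02616, from 3.49, 2.52 and 1.75 CPM to 14.4, 21.5 and 18 CPM (2.80 ± 0.31, adjusted p = 1.84e-07). LINC00853 and LINC02765 followed with 2.57 and 2.46, both from under 2 CPM in each control input. LINC00853 and LINC02765 each start opposite another gene, as does LINC00467, and LINC00707 starts near and inside others.

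Among the members lower in control IPs, LINC00355 fell from 10.2, 11.2 and 9.63 CPM in inputs to 1.4, 1.31 and 3.05 CPM in IPs (-2.49 ± 0.39, adjusted p = 1.93e-05). LINC00960 fell from 30.1, 32.3 and 33 CPM to 8.38, 3.41 and 7.62 CPM (-2.38 ± 0.27, adjusted p = 2.58e-07). LINC00467, a lncRNA gene studied in several cancers, fell from 10.8, 13.1 and 12.3 CPM to 4.42, 1.84 and 2.03 CPM (-2.20 ± 0.45, adjusted p = 3.31e-04). LINC01297 and LINC01203 also fell, with log2 differences of -1.96 and -1.62. The deposited scaling matters here. Centred on the mean of 77 ribosomal protein mRNAs, the median of all rows moved from -0.01 to 1.17 and that of members from 0.32 to 1.51, and 131 members rose and 5 fell (62.4% and 2.38%, against 63.6% and 5.83% of all rows). LINC00467 (adjusted p = 0.0544), LINC01297 (0.12), LINC01203 (0.307) and LINC01128 (0.975) then no longer passed.

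Of the lncRNA genes with a described role that were listed by symbol, 14 are members. In control cells LINC00662 (0.84), LINC00963 (0.88), LINC00938 (0.67), LINC01089 (1.48) and LINC01138 (1.21) rose in the IP. LINC00472 (-0.57), LINC00467 (-2.20), LINC01128 (-1.20) and LINC00520 (-3.69) fell, though the sign of LINC00472 turned to 0.61 with centring on ribosomal protein mRNAs. LINC01278 (0.14), LINC00888 (-0.45), LINC00205 (0.62), LINC00511 (0.21) and LINC00847 (-1.29) did not pass. LINC00520 rests on few reads, 11, 6 and 8 in the control inputs and 0, 3 and 0 in the control IPs. The call of LINC00938 (adjusted p = 0.0324) was lost without control input 1 or 2 or control IP 2 or 3, at adjusted p from 0.0569 to 0.212. That of LINC01128 was lost without control IP 1 (0.0517) or control IP 3 (0.0819).

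The same comparison in KO cells asks what the antibody selected in the absence of PCIF1. Here 66 members rose (31.4%) and 23 fell (11.0%), against 28.4% and 31.0% of all rows, with a median of 0.24 (SD 0.17 over the 3 KO IPs) against -0.07. At a mean log2 CPM of at least 2 the shares were 44.3% and 20.3% of members against 32.0% and 37.6% of all rows. These rows were again better covered than those members. Below that level the shares were 23.7% and 5.34% against 19.3% and 14.7%. LINC01560 had 1.15, 1.62 and 1.3 CPM in KO inputs and 21.1, 25.3 and 23.5 CPM in KO IPs. It rose by 4.04 ± 0.39 (adjusted p = 3.19e-08), the largest rise of any member. LINC01560 starts opposite ZNF41 within 500 bases, so reads of ZNF41 could be among these counts if strand was not used. LINC01186 rose from 0.287, 1.08 and 0.325 CPM to 9.81, 5.84 and 8.01 CPM (3.82 ± 0.49, adjusted p = 1.38e-06). LINC01291 rose from 16.1, 11.1 and 13.6 CPM to 104, 111 and 122 CPM (3.05 ± 0.17, adjusted p = 9.16e-12).

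Among members lower in KO IPs, LINC00467 fell from 13.5, 11.9 and 13.3 CPM to 0.981, 5.36 and 1.72 CPM (-2.57 ± 0.45, adjusted p = 5.91e-05). LINC00680 fell from 10.6, 9.74 and 8.12 CPM to 2.94, 2.92 and 1.72 CPM (-1.91 ± 0.34, adjusted p = 6.74e-05). LINC00960, LINC02256 and LINC02531 fell too, with log2 differences of -1.78, -1.79 and -1.30. LINC00467 and LINC00960 were thus lower in the IPs of both genotypes. With centring on ribosomal protein mRNAs the median of members moved to 0.86 and that of all rows to 0.55, and 99 members rose and 6 fell (47.1% and 2.86%, against 45.8% and 14.7% of all rows). LINC02531 (adjusted p = 0.0879) was among those that no longer passed.

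Both enrichments can be set side by side for each member, since they rest on different libraries. Of the 210, 40 rose in both genotypes, 13 rose in control cells only and 24 rose in KO cells only, where "only" means that the other comparison did not pass. A further 9 fell in both, 10 fell in control cells only and 14 fell in KO cells only. Rises in control cells only took 6.19% of members and 7.16% of all rows, and those in KO cells only 11.4% and 8.12%. Falls in control cells only took 4.76% and 7.81%, and those in KO cells only 6.67% and 10.4%. Rises in both took 19% of members and 19% of all rows, whereas falls in both took 4.29% of members and 19.1% of all rows, with no test of that difference. LINC00472 and LINC01029 fell in control IPs and rose in KO IPs, which is 0.952% of members against 1.31% of all rows. Their control values turned to 0.61 and 0.70 with centring on ribosomal protein mRNAs. No member rose in control IPs and fell in KO IPs, as did 1.54% of all rows. The 40 make up 75.5% of the members that rose in control cells and 60.6% of those that rose in KO cells, where over all rows these shares were 68.5% and 66.8%. Across the 210 members the log2 differences had a Pearson r of 0.54 and a Spearman rho of 0.55. Over the 79 members with a mean log2 CPM of at least 2 these were 0.72 and 0.72. The points share the antibody and the deposited scaling, and genes are not independent replicates.

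**Figure D2:**
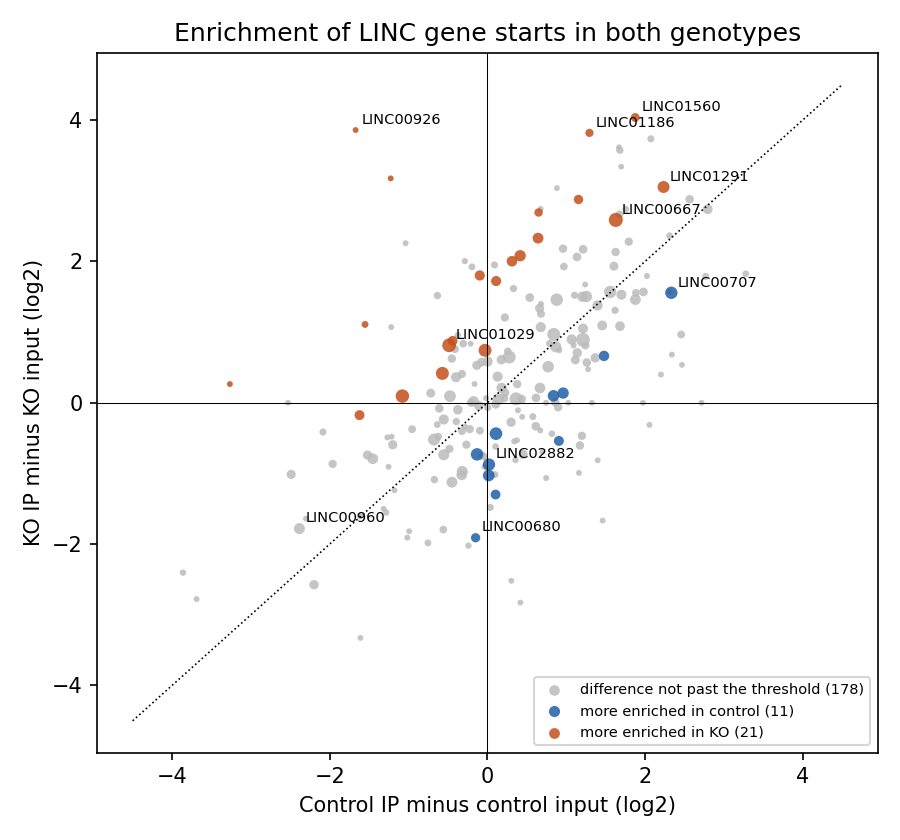
Each point is 1 of the 210 LINC starts, with its log2 difference of IP over input in control cells (horizontal) and KO cells (vertical); larger points have a higher mean level and the dotted line marks equality. Colours mark the 11 members more enriched in control cells and the 21 more enriched in KO cells, and points of few reads scatter most.

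Whether enrichment differed between the genotypes was tested as the difference of the 2 enrichments, control minus KO. It was positive for 11 members (5.24%) and negative for 21 (10.0%), while 15.8% of all rows were called positive and 13.0% negative. The median was 0.04 in members and 0.06 over all rows. With centring on ribosomal protein mRNAs, 30 members were positive and 12 negative (14.3% and 5.71%), against 37.6% and 4.90% of all rows, and the medians were 0.61 and 0.62. Of the 53 members enriched in control cells, 5 (9.43%) also passed with a positive difference, against 27.7% of all rows enriched there, and LINC00707 and LINC01089 are among them.

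LINC03052 was read at 24.4, 36.9 and 35.3 CPM in the control inputs, 33.8, 26.8 and 36.6 in the control IPs, 29.3, 28.1 and 29.6 in the KO inputs and 16.2, 14.6 and 12 in the KO IPs. Only the KO IPs stood apart, below all 9 other libraries. Its difference was 1.05 ± 0.25 (adjusted p = 0.00333), from 0.02 in control cells and -1.03 in KO cells, although the latter fall alone did not pass with centring on ribosomal protein mRNAs (adjusted p = 0.0867). LINC02882, which also starts with A by the canonical transcript but with C by the gene record, had 60.5, 48.3 and 48.7 CPM in the control inputs, 52.9, 50.6 and 55.6 in the control IPs, 49.6, 48.2 and 52.9 in the KO inputs and 18.6, 35.5 and 30.9 in the KO IPs. Its KO IPs too were the lowest group, with a difference of 0.90 ± 0.25 (adjusted p = 0.00988). LINC00680 reached 1.76 ± 0.48 (adjusted p = 0.00908), with 4.89, 3.67 and 7.36 CPM in control IPs and 2.94, 2.92 and 1.72 CPM in KO IPs. LINC01234 had 8.06, 6.87 and 6.13 CPM in control inputs and 14.2, 9.71 and 16.5 CPM in control IPs, but 6.31, 10.8 and 7.47 and 3.92, 7.3 and 5.72 CPM in KO inputs and IPs, a difference of 1.45 ± 0.41 (adjusted p = 0.0121).

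LINC00707 was enriched in both genotypes, and in KO cells it was read at 23.8, 24.6 and 12.7 CPM in inputs and 59.4, 71.1 and 45.2 CPM in IPs. Its enrichment was larger in control cells by 0.78 ± 0.28 (adjusted p = 0.0451). LINC01089, also known as LIMT, was at 8.33, 6.42 and 7.59 CPM in control inputs and 20.7, 18.4 and 23.6 CPM in control IPs. In KO cells it was at 6.6, 6.77 and 7.15 CPM in inputs and 11.8, 11.2 and 9.73 CPM in IPs, and the difference was 0.82 ± 0.29 (adjusted p = 0.042). LINC02434 and LINC02531 also passed, with 0.55 and 1.40. LINC01089, LINC00680 and LINC00707 start near another gene. Some of these calls sit close to the threshold. LINC00707 lost its call without any 1 of 10 of the 12 libraries (adjusted p from 0.0532 to 0.133; only without KO input 3 or KO IP 2 was it kept). LINC01089 lost it without any 1 of 8 (0.0577 to 0.11: all but control input 1, control IP 2 and KO IPs 1 and 2), and had 0.057 with limma's voom on the recovered reads and 0.0502 with the column number as a block within each genotype. LINC02531 lost it without control input 1, KO input 2 or 3, control IP 1 or 2, or KO IP 1 (0.0536 to 0.0826).

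Members more enriched in KO cells included LINC00667, whose rise was 1.63 in control cells and 2.59 in KO cells, a difference of -0.96 ± 0.13 (adjusted p = 2.25e-05). Its IPs overlapped between genotypes, from 337 to 415 CPM and from 378 to 406 CPM, while its KO inputs were lower. LINC01291 had a difference of -0.82 ± 0.24 (adjusted p = 0.0139). In contrast to LINC00667, its inputs overlapped between genotypes and its KO IPs, at 104, 111 and 122 CPM, lay above its control IPs. LINC01029 and LINC02582 had differences of -1.30 ± 0.19 and -1.17 ± 0.13, and LINC00472 had -0.99 ± 0.16. LINC01186 and LINC01560 had the largest of the members named by rule, -2.52 ± 0.70 and -2.16 ± 0.56, with adjusted p of 0.00989 and 0.00641. LINC01560 had 3.49, 4.99 and 9.65 CPM in control IPs against 21.1, 25.3 and 23.5 CPM in KO IPs, with inputs from 0.916 to 2.04 CPM in all 6 input libraries. LINC00342 and LINC01836 showed like values, -2.04 ± 0.55 and -1.72 ± 0.47, with KO IPs above every other library of those genes. With centring on ribosomal protein mRNAs, LINC00667 (adjusted p = 0.0656), LINC00472 (0.0992) and LINC01291 (0.443) no longer passed. LINC01203 (-1.45 ± 0.52, adjusted p = 0.0423) also lost its call there (0.191) and without any 1 of 7 libraries (0.0772 to 0.113), namely control inputs 2 and 3, KO inputs 1 and 2, control IPs 1 and 3 and KO IP 3.

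With the column number as a block within genotype, 3 further named members passed this test. LINC02381 reached adjusted p = 0.0411 at -0.37, LINC00963 0.0169 at -0.58 and LINC00355 0.0357 at -1.48. With centring on ribosomal protein mRNAs the sign of LINC02381 turned to 0.20 (adjusted p = 0.432). Without the block these 3 had adjusted p of 0.118, 0.0998 and 0.0533. LINC00963, for one, was at 45.3, 42.2 and 24 CPM in KO inputs, with the third library low, and at 109, 104 and 84.7 CPM in KO IPs. The block also added the enrichment of LINC02381 in control cells (0.28, adjusted p = 0.0174).

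The first base bears on this contrast, as m6Am needs an adenosine. Of the 75 members that start with A, 6 (8.0%) were positive and 6 (8.0%) negative, with a median of 0.09. Over all 6961 rows that start with A, 22.7% were positive and 8.78% negative with a median of 0.26, and over protein-coding rows that start with A, 27.6% and 6.24% with a median of 0.37. Of the 135 members that start with another base, 5 were positive and 15 negative (median -0.03), against 10.5% and 16.1% of all such rows (median -0.09). The A-starting members thus had a median nearer 0 than A-starting rows in general, and they were also much less covered, with a median mean log2 CPM of 1.39 against 3.85. Restricted to the 58 members whose canonical transcript and gene record both start with A, 4 were positive and 4 negative. By base, the median enrichment of members in control cells was 0.36 for A, 0.14 for C, 0.39 for G and 0.11 for T. Over all rows it was 0.28, -0.50, -0.19 and -0.57, so that the members did not show the gap between A and G seen over all rows, a difference that was not tested.

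GC content moved with enrichment inside the class. Members with a GC content of the start window under the member median had a median log2 difference of 0.65 in control cells and 0.61 in KO cells. Those at or above it had 0.10 and 0.06. For the difference between genotypes the medians were -0.05 and 0.08, and for KO inputs over control inputs they were -0.27 and 0.04. The same split was not made over all rows or by level, so it is not shown to be particular to LINC starts. It was not tested.

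Compared with other classes, the counts of members lay close to those of antisense and divergent lncRNA starts in both enrichments. Of 784 such rows, 23.7% rose and 12.1% fell in control cells, and 30.6% and 12.2% did so in KO cells. Of 1008 other lncRNA rows, 19.1% and 20.8% did so in control cells and 33.0% and 13.3% in KO cells. Protein-coding rows had 31.3% and 28.4% in control cells and 27.6% and 35.9% in KO cells. In the difference between genotypes, 19.9% of 12047 protein-coding rows were positive and 10.2% negative. The 3 classes of lncRNA had positive shares of 5.24% (members), 3.44% (antisense and divergent) and 3.37% (other). In the same order their negative shares were 10.0%, 9.31% and 15.0%, and their medians 0.04, -0.16 and -0.49. Level differs between these classes, with a median mean log2 CPM of 1.53 in members and 4.46 in protein-coding rows, and fewer rows pass at low levels. Among the 79 members with a mean log2 CPM of at least 2, 13.9% were positive and 19% negative, against 21.4% and 15.8% of 11430 such rows. These rows were still better covered, with a median mean log2 CPM of 4.79 against 3.28 in those members, so level is not matched. Among the 131 less covered members none was positive and 6 were negative, against 1.57% and 6.09% of such rows.

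**Figure D3:**
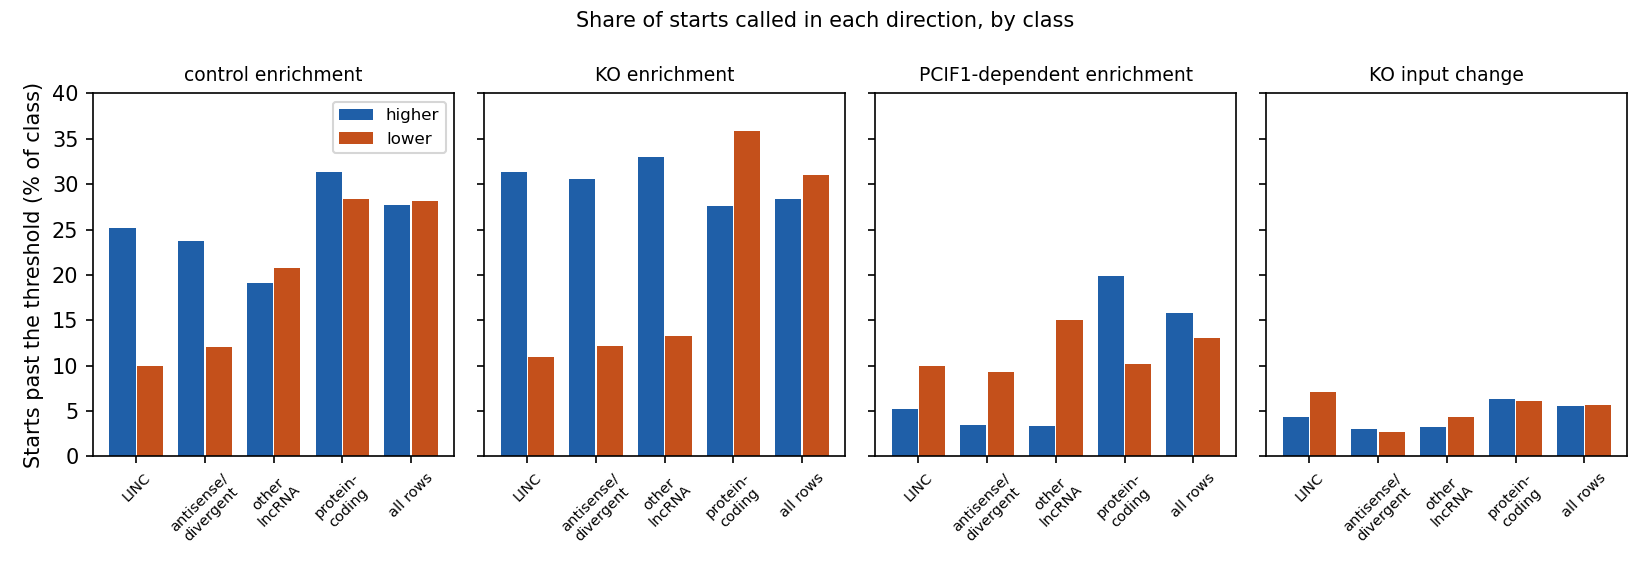
Percent of starts called higher (blue) and lower (orange) in each comparison for LINC members, antisense and divergent lncRNA, other lncRNA, protein-coding rows and all rows; in the third panel higher means more enriched in control cells. LINC members have a share called lower of 10.0% in control cells and 11.0% in KO cells, against 28.2% and 31.0% of all rows.

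The inputs, finally, compare the capped 5′ ends of LINC RNAs between genotypes without the antibody. In KO inputs 9 members were higher (4.29%) and 15 lower (7.14%), against 5.56% and 5.67% of all rows. With limma's voom on the recovered reads 15 were higher and 19 lower (7.14% and 9.05%), against 7.95% and 7.55% of all rows. In bulk libraries, fewer cells with a transcript and less of it per cell cannot be told apart. The median of members was -0.09 (SD 0.03 over the 3 KO inputs) against -0.02. LINC01029 rose by 1.88 ± 0.13 (adjusted p = 1.69e-08), from 82.2, 65.3 and 61.6 to 253, 277 and 234 CPM. LINC00472, a lncRNA gene described in breast cancer, rose by 0.98 ± 0.12 (adjusted p = 1.07e-05), from 55.9, 50.4 and 58.4 to 95.8, 106 and 125 CPM. LINC00674 rose by 1.08 ± 0.28 (adjusted p = 0.0167), a call lost without control input 2 (0.074), control input 3 (0.0525) or KO input 3 (0.0801). LINC00667 and LINC00973 fell, with log2 differences of -0.87 and -0.78. LINC02802 fell from 31.2, 36 and 33.9 to 14.9, 19.8 and 19.2 CPM (-0.91 ± 0.13, adjusted p = 1.02e-04). LINC00173 fell (-1.64 ± 0.47, adjusted p = 0.0284), and its call was lost without control input 1 (0.095), control input 3 (0.143) or KO input 3 (0.144).

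Chromosome 18 holds 7 members, and all 7 changed in KO inputs, in an order that follows their position. From the short-arm end, LINC00470, LINC00667, LINC00668 and LINC01444 fell, with log2 differences of -1.90, -0.87, -2.71 and -4.52 and adjusted p from 2.93e-06 to 0.0275. LINC01444, for example, was read at 10.5, 16.9 and 15.5 CPM in control inputs and 0.574, 0.812 and 0.325 CPM in KO inputs. The next 3 along the chromosome rose, LINC02864 by 0.61, LINC02582 by 0.43 and LINC01029 by 1.88. Other rows of this chromosome were summarised by stretch. The 78 at or before LINC01444 had a median of -0.76, with 3 higher and 40 lower, and the 28 at or after LINC02864 had a median of 0.59, with 13 higher and none lower. The 157 rows between these members had a median of 0.40, with 47 higher and 6 lower. Without the members of chromosome 18, 6 members were higher and 11 lower in KO inputs, and in the difference between genotypes 11 were positive and 18 negative. LINC00667, LINC02582 and LINC01029, whose enrichment differed between genotypes, lie on this chromosome.

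**Figure D4:**
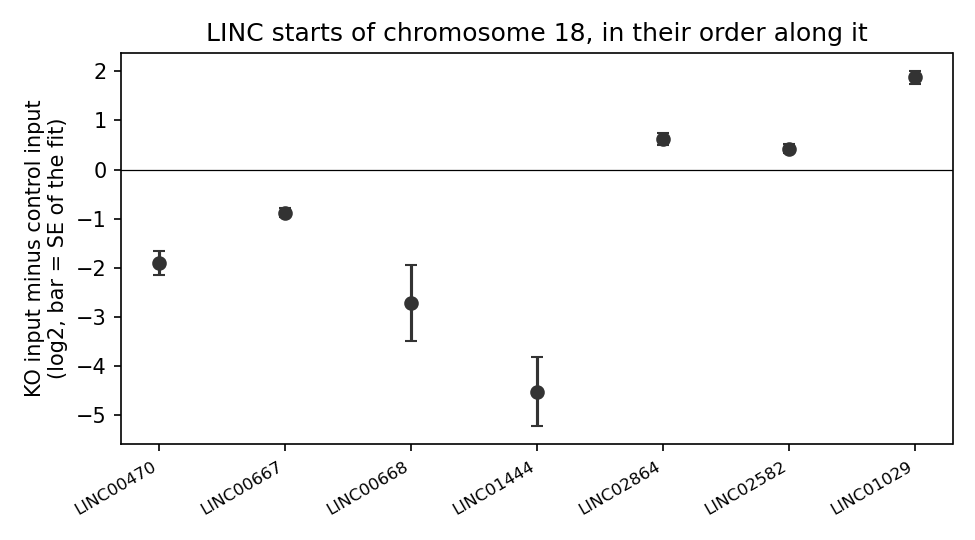
Log2 difference of KO inputs over control inputs for the 7 LINC starts of chromosome 18 in their order along it; bars are standard errors of the fit. The first 4 lie below 0 and the last 3 above it.

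Some LINC starts had reads, or nearly all of them, in the libraries of 1 genotype, a set chosen after its values were seen and given as a description, with no test of the difference between genotypes. LINC02241 had 29, 26 and 19 reads in the control inputs and 4, 3 and 6 in the control IPs, and 0 in all 6 KO libraries. With a floor of 3 counts over the 3 KO inputs it was at least 22.0-fold lower there. It fell in the control IPs as well (-2.53, adjusted p = 0.0138). LINC00540 had 21, 15 and 8 reads in control inputs, 63, 58 and 51 in control IPs and again 0 in all KO libraries, at least 13.1-fold lower in KO inputs. In contrast to LINC02241 it rose in the control IPs (1.97, adjusted p = 0.0185). The KO values of LINC02241 and LINC00540 have no spread, and the fit shares 1 estimate of the spread over all libraries. Both of these adjusted p-values may therefore be too small. Both members also met the filter on low values through control libraries alone and were picked by their values. Their p-values are thus given as description and not as support. LINC01515 (28 reads over the control inputs, at least 8.32-fold lower) and LINC03040 (17 reads, at least 5.05-fold lower) likewise had no KO read. The same held for LINC01589 (9 reads) and LINC01173 (8 reads). LINC01173 had its 8 input reads in 1 library.

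In the other direction LINC02953 had 0 reads in all control inputs and 6, 4 and 3 in KO inputs, at least 4.86-fold higher. Its KO IPs held 20, 18 and 13 reads, and 1 control IP held 1. LINC02910 had 0, 1 and 0 reads in control inputs and 13, 7 and 9 in KO inputs, and LINC01537 had 11, 15 and 7 and 0, 2 and 0. The members of this set lie on different chromosomes, apart from LINC02953 and LINC01537, which are both on chromosome 11.

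**Figure D5:**
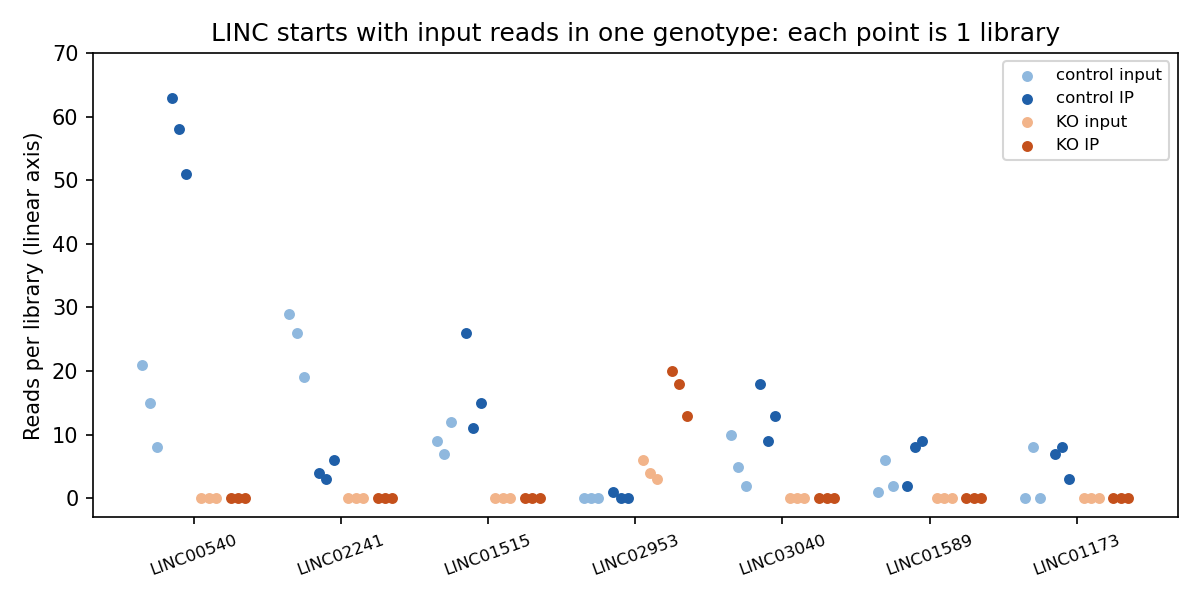
Reads per library (linear axis) for the 7 LINC starts with 0 reads in all 6 KO libraries or at most 1 read over the 6 control libraries. Each point is 1 library. All have 0 reads in the 6 KO libraries except LINC02953, which has 0 in the control inputs and from 13 to 20 in the KO IPs.

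In all, 90 of the 210 members (42.9%) passed in none of the 4 comparisons, against 23.2% of all rows. A comparison that did not pass does not show equal levels, least of all in the 102 members under 10 reads per library.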

How the data were processed

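The authors deposited log2 CPM values, with 1 column for each of 12 libraries, for the start region of 16009 genes, per the file headers. Build hg38, edgeR 3.12.1, featureCounts and HISAT2 2.0.4 are among the names listed, without their roles, per the submitters' processing notes. What window, strand setting and filter the counting used is not given in the sources used here, although the library kit keeps strand, per the labels' protocols. Without strand in the counting, reads of overlapping genes cannot be told apart. With an added count of 0.25, scaled to the library, 100% of deposited values gave whole reads within 0.01, and these give the depth. The reads carry no molecular identifiers, so counting error understates the true error. Columns are numbered and labels lettered, so columns were matched to groups only.

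A limma model (version 3.58.1 in R 4.3.3) with 1 mean per group and a mean-variance trend was fitted to all 12 libraries, with rows kept at log2 CPM of at least 0 in at least 3 libraries, and adjusted p-values by Benjamini-Hochberg over all 16009 rows. The fit was tested on simulated reads, with changes set only in better covered genes. Recovery of changes in members with few reads was therefore not tested. Control enrichment, KO enrichment, their difference and KO minus control input were taken from the fit to the deposited values. Log2 differences understate the change of rows with few reads. GENCODE 44 gave names, starts and first bases (15903 of 16009 identifiers matched), and the members are the rows with a LINC symbol, of which 1 is not reported here, and not all start sequences are shown. Members, lists and tests were chosen with earlier results of these data known. Named were the 10 highest members, up to 5 called members per direction and comparison whose libraries did not overlap and whose mean log2 CPM was 1 or more, and 14 listed genes.

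Residuals of IP and input with the same column number correlated within genotype (0.101 to 0.304 over 7549 rows). Between genotypes they ran from 0.21 to 0.301 for columns 1 and 3, and were -0.107 and -0.061 for column 2. The main fit had no block, so its p-values leave out any such pairing, and blocks by column number were used only as alternatives. No pair of libraries of a group agreed within sampling noise. Where nothing shows that replicates were separate cultures, p-values measure the spread between these libraries. Alternatives were scaling, filters, added count, limma's voom, blocks by column number, leaving out each library, and leaving out members near other genes or on chromosome 18.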

Additional observations from a re-analysis of the deposited data

Results flagged for a closer look

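The enrichment of 20 named members differed between control and KO cells by the test of the difference itself (limma, adjusted p under 0.05, log2, control minus KO). More enriched in control cells were LINC00680 (1.76), LINC01234 (1.45), LINC02531 (1.40), LINC03052 (1.05), LINC02882 (0.90), LINC01089 (0.82), LINC00707 (0.78) and LINC02434 (0.55). More enriched in KO cells were LINC01186 (-2.52), LINC01560 (-2.16), LINC00342 (-2.04), LINC00923 (-1.90), LINC01836 (-1.72), LINC01203 (-1.45), LINC01029 (-1.30), LINC02582 (-1.17), LINC00472 (-0.99), LINC00667 (-0.96), LINC01291 (-0.82) and LINC02693 (-0.77). Of the first group, LINC00680, LINC03052, LINC02882, LINC00707 and LINC02434 start with A by the canonical transcript, and of the second LINC00472 and LINC01291 do. By the gene record, LINC02882 and LINC00707 start with C, while LINC01234, LINC02693 and LINC01203 start with A. Over all called members, named or not, 6 of the 11 positive and 6 of the 21 negative start with A by the canonical transcript. LINC00923 had 6.99, 7.1 and 7.88 CPM in the control inputs, 5.59, 6.82 and 8.38 in the control IPs, 5.45, 5.41 and 8.45 in the KO inputs and 18.1, 24.8 and 24 in the KO IPs, so the KO IPs alone stood apart. LINC02693 likewise had its highest values in KO IPs, 121, 108 and 101 CPM, with control IPs at 58.7, 54 and 53.1 CPM. With centring on ribosomal protein mRNAs the difference of LINC02693 no longer passed (adjusted p = 0.364).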

How the results depend on the processing

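With centring on ribosomal protein mRNAs, control enrichment had 131 members higher and 5 lower, KO enrichment had 6 lower, and the difference between genotypes had 30 positive and 12 negative. The same centring turned the sign of control enrichment for LINC01029 (0.70), LINC02582 (0.11), LINC00472 (0.61), LINC02693 (1.16), LINC00888 (0.74), LINC00923 (1.09) and LINC00680 (1.04), of KO enrichment for LINC02434 (0.18), and of the difference for LINC00662 (0.44) and LINC02802 (0.56). In these 10 the test was passed under at least 1 of the scalings. Where it was passed under neither, the sign also turned for LINC00674 (0.63) and LINC02256 (0.63) in control enrichment, for LINC00674 (0.38), LINC01234 (0.08), LINC01203 (0.44), LINC01128 (0.02), LINC01444 (0.01) and LINC00173 (0.55) in KO enrichment, for LINC02381 (0.20), LINC00674 (0.25) and LINC00853 (0.25) in the difference, and for LINC01128 (0.04) in KO inputs. The centring shifts all rows alike. With a mean log2 CPM of at least 2, which leaves fewer members, control enrichment had 35 higher and 13 lower, KO enrichment 35 higher, and KO inputs 5 lower. Without members near or inside another gene, 124 were left. Control enrichment then had 29 higher and 13 lower, and KO enrichment 37 higher and 9 lower. The difference was positive for 6 (4.84%) and negative for 15 (12.1%), against 15.8% and 13.0% of all rows. KO inputs had 8 higher and 9 lower. With voom on the recovered reads, chosen after seeing the data, 15 members were higher in KO inputs. Over all rows the share higher there also moved, from 5.56% to 7.95%. In control enrichment voom had 67 members higher and 25 lower (31.9% and 11.9%), against 30.6% and 31.4% of all rows. The share higher then lay above that of all rows, not below it. KO enrichment had 70 higher and 20 lower, and the median of members moved from 0.24 to 0.44. The difference between genotypes had 10 positive and 26 negative. Its median turned from 0.04 to -0.11 in members and was 0.007 over all rows. The cause of these shifts was not tested. Leaving out 1 library at a time gave 43 to 58 higher and 17 to 22 lower in control enrichment, 61 to 67 and 17 to 28 in KO enrichment, 6 to 12 positive and 17 to 23 negative in the difference, and 8 to 11 and 12 to 20 in KO inputs. The 11 positive differences became 6 without control IP 1 and 7 without control IP 2, control input 3 or KO input 1. With the column number as a replicate block across groups, control enrichment had 56 and 21, KO enrichment 68 and 23, the difference 11 and 23, and KO inputs 9 and 16. With the block within genotype, chosen after seeing the data, these were 57 and 21, 69 and 23, and 11 and 24, and no call of a named member changed other than those given above. Centring on the median and an added count of 2 left all counts within 1.5 times. Leaving out the filter could change nothing, since all 16009 rows had met it. The planned edgeR and DESeq2 tests were not run, since the deposited unit is log2. Depth limits the 102 members under 10 reads per library.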
